A study of Mus musculus with 6 samples.

Results

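The immediate early transcription factors are a set of 10 genes, picked by gene symbol from the 19446 genes measured in cultured mouse cardiac fibroblasts (CFs): *Fos*, *Fosb*, *Fosl1* and *Fosl2* of the FOS family, *Jun* and *Junb* of the JUN family, the zinc finger genes *Egr1* and *Egr2*, *Ier2* and *Atf3*. All 10 were found in the table, and all 10 were among the 15948 genes that passed the filter on low values. The study had sequenced polyadenylated RNA of CFs from wild-type (WT) mice and from CharmeKO mice, in which a polyadenylation signal was inserted to stop transcription of *Charme*, a long non-coding RNA, with 3 libraries per genotype and no treatment in either. Per the study's methods the mice were C57BL/6J, and cultures were grown out of atrial tissue collected from several littermates, so that a library need not stand for a single animal. The labels give an age of 5 weeks for both groups, and both were kept in IMDM with 20% fetal bovine serum (FBS) on fibronectin. The labels number the libraries 1 to 3 in each genotype but do not say what libraries of the same number share. The study describes its replicates as independent primary isolations, but the labels do not tie each library to one, and the p-values measure the spread between these 6 libraries.

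Immediate early genes are transcribed within minutes of a signal such as serum, growth factors, stretch or cell damage, from factors already present in the cell and without new protein synthesis, and their RNAs are short-lived. FOS proteins pair with JUN proteins to form the AP-1 factor, while EGR proteins bind GC-rich sites on their own. In fibroblasts these genes are known for their burst after serum is added and during tissue dissociation. *Fosl1* and *Fosl2* differ from *Fos* and *Fosb* in that they are turned on later and held longer.

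All 10 members are protein-coding genes. In GENCODE M21, which is on the GRCm38 build, *Fos* lies at chr12:85473890-85477273 on the plus strand, *Fosb* at chr7:19302696-19310051 on the minus strand, *Fosl1* at chr19:5447547-5455946 on the plus strand and *Fosl2* at chr5:32135801-32157842 on the plus strand. *Jun* lies at chr4:95049034-95052222, *Junb* at chr8:84974484-84978718 and *Ier2* at chr8:84661331-84662852, all 3 on the minus strand. *Egr2* lies at chr10:67535475-67542188 on the plus strand and *Atf3* at chr1:191170296-191218039 on the minus strand. None of them overlaps another gene on its own strand.

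Promoters of 4 members are shown because their transcripts behaved differently among the libraries. *Fos* and *Fosb* had the widest ranges, *Fosl2* the narrowest and *Egr2* the next narrowest. Among the 7 members whose promoters could be searched, only *Egr2* held a match to the CArG box in its windows. A site more than 250 bases before a start could not be found, so a missing match does not show that a gene lacks one. Each run holds 250 bases before and 50 after a transcription start on RefSeq GRCm38.p6, written 5′ to 3′ along the gene. Capitals mark the CArG box bound by serum response factor, the sequence TGACGT bound by CREB and ATF factors (ACGTCA where it lies on the other strand), and the EGR site GCGNGGGCG.
Fos, chr12:85473640-85473939, plus strand: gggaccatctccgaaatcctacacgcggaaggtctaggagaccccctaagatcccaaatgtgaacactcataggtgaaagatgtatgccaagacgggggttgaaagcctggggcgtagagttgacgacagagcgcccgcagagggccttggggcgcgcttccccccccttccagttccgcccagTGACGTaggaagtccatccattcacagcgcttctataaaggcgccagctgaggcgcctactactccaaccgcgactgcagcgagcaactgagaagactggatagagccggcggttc
Fosb, chr7:19309996-19310295, minus strand: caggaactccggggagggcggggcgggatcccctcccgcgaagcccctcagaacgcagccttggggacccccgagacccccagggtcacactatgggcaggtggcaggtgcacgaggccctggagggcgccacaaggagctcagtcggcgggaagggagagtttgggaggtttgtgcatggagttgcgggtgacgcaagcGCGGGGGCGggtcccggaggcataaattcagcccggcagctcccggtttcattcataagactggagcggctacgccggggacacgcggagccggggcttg
Egr2, chr10:67537619-67537918, plus strand: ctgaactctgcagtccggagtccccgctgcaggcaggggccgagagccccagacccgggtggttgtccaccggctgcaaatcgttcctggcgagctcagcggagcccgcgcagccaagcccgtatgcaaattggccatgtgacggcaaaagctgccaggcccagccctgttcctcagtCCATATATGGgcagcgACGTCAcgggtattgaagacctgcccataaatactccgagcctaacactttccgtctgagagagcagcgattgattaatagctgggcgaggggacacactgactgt
Fosl2, chr5:32136222-32136521, plus strand: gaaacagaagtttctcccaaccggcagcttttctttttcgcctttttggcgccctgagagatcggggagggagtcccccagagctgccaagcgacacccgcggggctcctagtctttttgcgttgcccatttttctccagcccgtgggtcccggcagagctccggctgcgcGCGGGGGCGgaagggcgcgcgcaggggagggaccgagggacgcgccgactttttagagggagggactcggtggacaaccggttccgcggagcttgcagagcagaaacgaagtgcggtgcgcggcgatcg

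Of the 10 members, 7 had promoters in the RefSeq table, in 11 windows because *Egr2* has several start sites. The search covered both strands, and TGACGT is contained in the full element TGACGTCA. Among these 7 members a CArG box was present in 4 of the 11 windows, all of *Egr2*, against 1.63% of the 32851 mouse promoters searched. Some windows of *Egr2* overlap and hold the same match, so they are not separate finds. In *Egr2*, CCATATATGG began 72 bases before the start shown. TGACGT was present in 5 of the 11 windows, against 7.51% of all promoters. It lay 66 bases before the start in *Fos*, 56 bases before the start shown in *Egr2* and 8 bases before the start in *Atf3*. The EGR site was present in 2 of the 11 windows, against 5.55% of all promoters. These were *Fosb*, 50 bases before the start, and *Fosl2*, 79 bases before it. Neither TGACGTCA nor the AP-1 site TGANTCA was present in any member's windows, against 1.79% and 7.81% of all promoters. These are matches of letters in short windows and nothing was measured at them. Sequence outside the windows was not searched, so a gene without a match may hold one elsewhere.

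Library totals ranged from 38330019 to 46797446 reads. The row taken as *Charme* held 5, 15 and 11 reads in the WT libraries and 0, 6 and 3 reads in the CharmeKO libraries, too few to check the genotype of each library. All 12 fibroblast markers passed the filter, at a summed level of 26196 to 54810 CPM, reads scaled to the library total. The cardiomyocyte markers summed to 6.78 to 21.7 CPM, with *Myh6*, *Actc1* and 5 others of the 12 not in the table, the endothelial markers to 31.5 to 150 CPM, the haematopoietic markers to 25.8 to 460 CPM and the mesothelial markers to 21.9 to 345 CPM. As the RNA came from whole cultures, fewer cells of a type and less RNA per cell cannot be told apart.

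Levels of different members were compared as CPM per kilobase of annotated exon. By the mean of the 6 libraries, *Junb* had the highest level at 232, followed by *Egr1* at 201, *Fos* at 147 and *Ier2* at 113. *Fosl2* at 43.2, *Jun* at 40.7, *Fosb* at 35.2 and *Fosl1* at 17.7 followed, with *Egr2* at 4.02 and *Atf3* at 3.62 the lowest. Neighbours in this order overlapped across libraries with 1 exception. The lowest *Fosl1* level, 7.22, was above the highest *Egr2* level, 6.77. *Junb* ranked first in 5 of the 6 libraries and *Egr1* in the remaining one, WT 2. The order below them was not fixed, since *Fosb* had rank 8 of the 10 in all 4 libraries numbered 1 or 3 and rank 5 in both libraries numbered 2.

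The libraries of the set differed by replicate number. Both libraries numbered 2, WT 2 and CharmeKO 2, were above the other 4 for 9 of the 10 members, against 16.1% of all genes tested, and below the other 4 for the remaining member, *Fosl1*, against 18.4% of all genes tested. This split of the libraries was described after their values had been seen and was not itself tested.

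**Figure D1:**
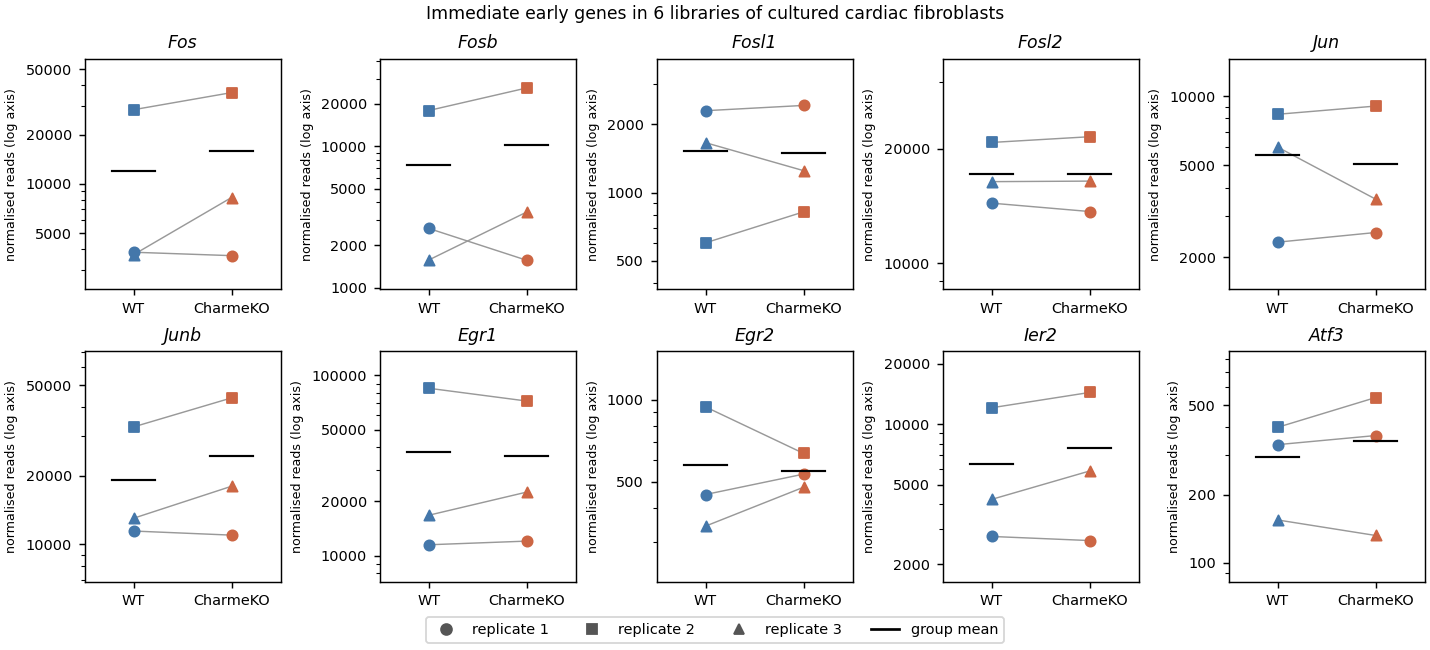
Normalised reads of the 10 immediate early transcription factors in each library on a logarithmic axis, with WT in blue, CharmeKO in orange, marker shape giving the replicate number, grey lines joining libraries of the same number and black bars giving group means. Squares, the libraries numbered 2, are the highest points of each genotype in every panel but *Fosl1*, where they are the lowest.

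*Fos*, the founding member of the FOS family, had 3840, 28329 and 3709 normalised reads in WT libraries 1 to 3, and 3660, 36008 and 8271 in CharmeKO libraries 1 to 3. WT 2 stood 7.51-fold above the mean of the other WT libraries and CharmeKO 2 stood 6.04-fold above the mean of the other CharmeKO libraries. *Fosb*, whose product also carries a strong activation domain, had 2621, 17902 and 1568 in WT and 1559, 25858 and 3428 in CharmeKO. The order of the 6 libraries was the same for both genes from CharmeKO 2 and WT 2 at the top down to CharmeKO 1 at the bottom. *Fosb* had the widest range of all members, 16.6-fold from the lowest library to the highest, against 9.84-fold for *Fos*.

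*Fosl1*, which encodes FRA-1, ran the other way. It had 2296, 601 and 1660 normalised reads in WT libraries 1 to 3 and 2422, 823 and 1250 in CharmeKO libraries 1 to 3, so that the libraries highest for *Fos* were the lowest here. Library 2 held 0.304 of the mean of the other libraries in WT and 0.448 in CharmeKO. *Fosl2*, which encodes FRA-2, was the steadiest member, at 14396, 20786 and 16397 in WT and 13684, 21519 and 16450 in CharmeKO. Its highest library was 1.57-fold above its lowest, with the libraries numbered 2 again at the top.

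Among the JUN genes, *Junb* had 11448, 32851 and 13029 normalised reads in WT libraries 1 to 3, and 10983, 44076 and 18018 in CharmeKO libraries 1 to 3. *Jun*, the general partner of FOS proteins, had 2320, 8338 and 6007 in WT and 2555, 9051 and 3569 in CharmeKO. Both were highest in the libraries numbered 2 and the genotypes overlapped throughout. *Jun* differed from *Junb* in the libraries numbered 3, where WT 3 came nearer to WT 2 for *Jun* than for *Junb*. *Jund*, the third JUN gene and no member of the set, had 11549, 14061 and 9873 in WT and 13431, 15941 and 13716 in CharmeKO, a narrower range than either.

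*Egr1*, a zinc finger factor and one of the most used readouts of growth factor signalling, had 11472, 84736 and 16731 normalised reads in WT libraries 1 to 3, and 12021, 71957 and 22494 in CharmeKO libraries 1 to 3. Its value in WT 2, above that in CharmeKO 2, was the highest of any member in a single library, while in both libraries numbered 1 *Fosl2* had more normalised reads. *Egr2*, also known as Krox20, had 448, 942 and 343 in WT and 533, 635 and 477 in CharmeKO. The gap between library 2 and the rest was smaller for *Egr2*, at 2.38-fold in WT and 1.26-fold in CharmeKO, than the 6.01-fold and 4.17-fold of *Egr1*.

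*Ier2*, a nuclear protein induced by serum, had 2758, 12061 and 4218 normalised reads in WT libraries 1 to 3, and 2631, 14376 and 5841 in CharmeKO libraries 1 to 3. *Atf3*, a stress-induced bZIP factor that can pair with JUN proteins, had 334, 398 and 155 in WT and 366, 540 and 132 in CharmeKO. *Ier2* followed the library order of *Junb*. For *Atf3* the libraries numbered 3 were the lowest in both genotypes and WT 2 was only a little above CharmeKO 1.

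The comparison of genotypes asked whether loss of *Charme* altered these genes in cultured CFs. With limma on log2(normalised reads + 1) and genotype as the only term, 0 of the 10 members passed the threshold of 0.05 on the adjusted p, against 0% of the 15948 genes tested. At an unadjusted p under 0.05 there were 0 members, against 0.897% of all genes. edgeR's quasi-likelihood test on the recovered reads called 0 members and DESeq2 called 0 members, the latter against 0.0502% of all genes. The number of genes whose genotypes did not overlap was 0 of 10, against 4.11% of all genes (2.14% with CharmeKO higher and 1.98% with CharmeKO lower).

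The limma estimates were above 0 for 8 members and below 0 for 2, against 8034 and 7914 of all genes, with a median log2 fold change of 0.10 over the members and of 0.0022 over all genes. The split was not stable: it was 6 to 4 with edgeR (TMM) and 5 to 5 with DESeq2, and it fell to 3 to 7 without WT 1 or WT 3 and to 1 to 9 without CharmeKO 2. *Fos* had the highest log2 fold change, CharmeKO minus WT, at 0.48 (SE 1.08, 95% CI -2.11 to 3.06). *Jun* had the lowest, at -0.16 (SE 0.621, 95% CI -1.65 to 1.32). *Fosl2*, at -0.0062, had the narrowest interval, -0.60 to 0.59, and *Fosb*, at 0.30, the widest, -2.73 to 3.34. The adjusted p by limma was 0.9999 for each member.

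Same-numbered libraries deviated together from their group means for numbers 1 and 2 (r = 0.762 and 0.514 across genes). For number 3 the correlation was weaker (r = 0.217), and CharmeKO 3 correlated as much with WT 2 (r = 0.222). With this limit the replicate number was also entered as a blocking term. The intervals became narrower and still held 0 for each member. That of *Fos* ran from -0.20 to 1.16, of *Fosb* from -0.71 to 1.32, of *Junb* from -0.12 to 0.68 and of *Ier2* from -0.13 to 0.57. That of *Fosl1* ran from -0.46 to 0.55, of *Fosl2* from -0.27 to 0.26, of *Jun* from -0.73 to 0.40, of *Egr1* from -0.36 to 0.53, of *Egr2* from -0.59 to 0.70 and of *Atf3* from -0.41 to 0.64. With this block 0 members were called by limma, edgeR or DESeq2, against 0.401% of all genes by DESeq2, which called 64 genes with the block and 8 without it. At an unadjusted p under 0.05 with the block there were 0 members by limma, against 5.37% of all genes, and the lowest adjusted p of a member was 0.80.

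**Figure D2:**
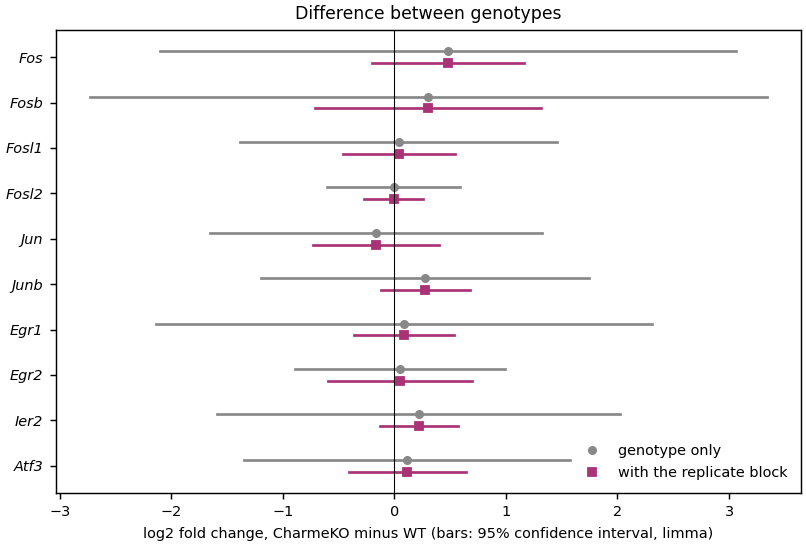
Log2 fold change of each immediate early transcription factor, CharmeKO minus WT, with 95% confidence intervals from limma, in grey with genotype as the only term and in purple with the replicate number as a block, and a vertical line at 0. The interval of *Fos* narrows from -2.11 to 3.06 without the block to -0.20 to 1.16 with it, and every interval crosses 0.

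Within pairs of the same number, the log2 differences of *Fos* were -0.069, 0.35 and 1.16 in pairs 1 to 3, and those of *Fosb* were -0.75, 0.53 and 1.13. For both genes CharmeKO was below WT in pair 1 and above it in pairs 2 and 3. *Junb*, at -0.060, 0.42 and 0.47, and *Ier2*, at -0.068, 0.25 and 0.47, had the same signs. *Jun*, at 0.14, 0.12 and -0.75, *Fosl1*, at 0.077, 0.45 and -0.41, and *Atf3*, at 0.13, 0.44 and -0.23, had the opposite sign in pair 3 to that in pairs 1 and 2. *Egr1*, at 0.067, -0.24 and 0.43, and *Egr2*, at 0.25, -0.57 and 0.47, were lower in CharmeKO in pair 2 only. No member kept 1 direction in all 3 pairs, which 30.4% of all genes did.

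The replicate number was then tested in place of genotype, a test added after the values had been seen. In limma's F-test over the 3 numbers, with genotype in the fit, 8 of the 10 members differed between numbers at an adjusted p under 0.05, against 8.65% of all genes. They were *Fos* (adjusted p = 0.0361), *Egr1* (0.0361), *Ier2* (0.0361), *Junb* (0.0364), *Fosb* (0.0430), *Fosl1* (0.0468), *Atf3* (0.0476) and *Jun* (0.0491). *Fosl2*, with an adjusted p of 0.0736 by limma, and *Egr2*, with 0.153, did not pass. At an unadjusted p under 0.05 there were 9 members, against 38.5% of all genes. The share of a member's variance that lay between the numbers had a median of 94.3%, against 73.8% over all genes, and the share between genotypes had a median of 0.743%, against 5.91%.

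The count depended on the tool and on single libraries. edgeR called 4 members, against 4.11% of all genes, and DESeq2 called 9, against 30.9%. Leaving out any library leaves its number with 1 library and each gene with 1 residual degree of freedom, beside what limma borrows from other genes. Without WT 1, WT 2, CharmeKO 1 or CharmeKO 2, limma called 0 members and 0 genes, with 8, 8, 8 and 9 members at an unadjusted p under 0.05, against 16.2%, 25.4%, 14.4% and 27.8% of all genes. It called 9 members without WT 3, against 37.4% of all genes, and 9 without CharmeKO 3, against 28.6%.

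On the log2 scale, the mean of both libraries numbered 2 minus the mean of the other 4 was 3.31 for *Fosb*, 2.81 for *Fos*, 2.37 for *Egr1*, 1.85 for *Ier2*, 1.54 for *Junb* and 1.37 for *Jun*. It was 1.05 for *Atf3*, 0.80 for *Egr2*, 0.48 for *Fosl2* and -1.39 for *Fosl1*. The direction for each member was the same with TMM scaling and with plain library totals.

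The makeup of the FOS family also varied from library to library. Of the summed FOS family level per kilobase, *Fos* made up 35.0%, 69.4% and 36.3% in WT libraries 1 to 3 and 35.3%, 69.3% and 55.1% in CharmeKO libraries 1 to 3. *Fosl1* made up 24.2%, 1.70% and 18.8% in WT and 27.0%, 1.83% and 9.64% in CharmeKO. The 2 libraries numbered 2 were nearly alike in both shares, and CharmeKO 3 lay between them and the rest. The level of *Fosl2*, the steadiest member, ran from 32.9 to 56.8 CPM per kilobase and was highest in the libraries numbered 2. Its share ran from 10.1% in CharmeKO 2 to 39.0% in WT 3. The log2 ratio of *Fos* to *Fosl1* per kilobase was 0.53, 5.35 and 0.95 in WT and 0.39, 5.24 and 2.52 in CharmeKO.

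In the JUN family, *Junb* made up 39.4%, 56.4% and 42.1% of the summed level per kilobase in WT libraries 1 to 3 and 35.0%, 60.7% and 45.6% in CharmeKO libraries 1 to 3. *Jund* had the largest share in the 4 libraries numbered 1 or 3, and *Junb* in both libraries numbered 2. *Jun* stayed the smallest part, from 5.76% in WT 1 to 14.0% in WT 3.

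**Figure D3:**
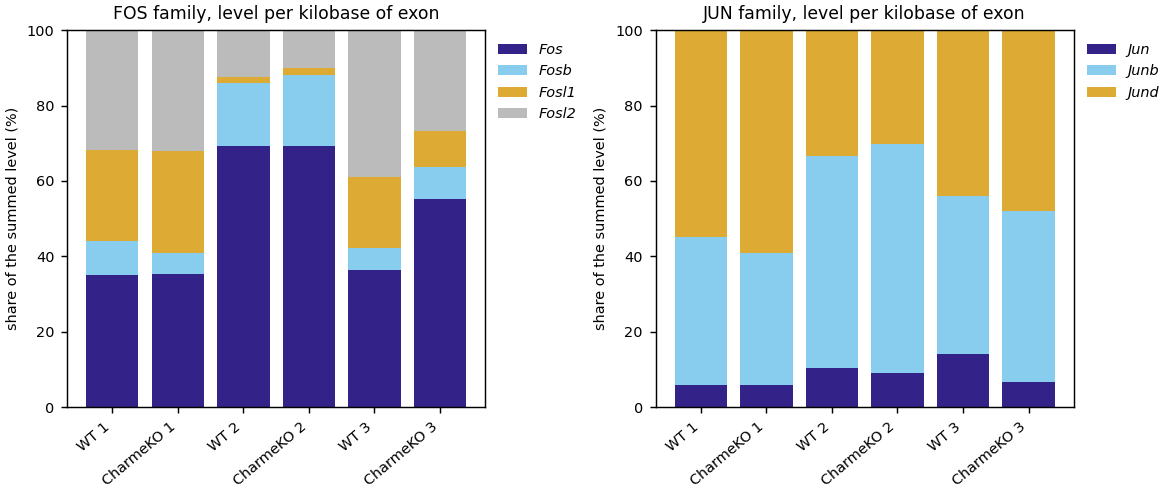
Share of the summed level per kilobase of exon, in percent, taken by each gene of the FOS family (left) and of the JUN family (right), with 1 stacked bar per library and libraries of the same number side by side. *Fos* takes 69.4% and 69.3% in the libraries numbered 2, while *Fosl1* shrinks there to 1.70% and 1.83%.

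Other immediate early and serum response genes were described from a list of 51 symbols, of which 49 were tested and the other 2 are older names of genes already in it. Between genotypes 27 of the 49 were higher and 22 lower in CharmeKO, with a median log2 fold change of 0.022 and 0 past the threshold by limma. The lowest was *Ptgs2*, the inducible cyclooxygenase, at -1.62, with log2 differences of -0.49, 0.57 and -4.95 in pairs 1 to 3. The highest was *Dusp2*, a phosphatase of MAP kinases, at 0.82, which had at most 16.5 normalised reads in any library. By number, 20 of the 49 (40.8%) were above the other 4 libraries in both libraries numbered 2, against 16.1% of all genes, 5 (10.2%) were below them, against 18.4%, and 14 (28.6%) passed the F-test, against 8.65%.

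Genes of this list named here for their values by number were chosen after those values were seen. *Nr4a1*, an orphan nuclear receptor, had 5079, 22422 and 7635 normalised reads in WT libraries 1 to 3 and 3939, 30922 and 7479 in CharmeKO libraries 1 to 3. *Socs3*, an inhibitor of cytokine signalling, had 2252, 10947 and 3320 in WT and 2238, 18641 and 5069 in CharmeKO. Both stood with *Fos* and *Egr1*, highest in the libraries numbered 2, and both passed the F-test (limma, adjusted p = 0.0361 for each). *Ccn2*, a target of TGF-beta and of YAP, had 66758, 9593 and 77404 in WT and 75599, 6807 and 24469 in CharmeKO, lowest in the libraries numbered 2 as *Fosl1* was (adjusted p = 0.0489 by limma).

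Genes whose products carry growth factor signals to immediate early promoters were described in the same way. Of the 6 tested regulators of the SRF, TCF and MRTF class, all 6 had negative log2 fold changes between genotypes, from -0.31 for *Srf* to -0.053 for *Mrtfa*, with 0 past the threshold, and 1 (16.7%) was above and 0 were below the other libraries in those numbered 2, against 16.1% and 18.4% of all genes. Of the 26 tested genes of the MAPK cascade, 15 were higher and 11 lower in CharmeKO, the lowest at -0.90 for *Rps6ka1*, with 0 past the threshold. In the libraries numbered 2, 11 of these 26 (42.3%) were below the other 4, *Hras* and *Mapk3* (named after their values were seen) among them, and 3 (11.5%) were above, against 18.4% and 16.1% of all genes. Of the other EGR genes and their corepressors 3 were tested, from *Nab1* at -0.16 to *Egr3* at 0.44 between genotypes, and 0 of them were above or below by number.

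Among 23 tested bZIP genes outside the set, 10 were higher and 13 lower in CharmeKO, with 0 past the threshold. Log2 fold changes ran from -1.43 for *Batf*, which had at most 21.7 normalised reads in any library, to 0.81 for *Maf*. By number 4 (17.4%) were above the other libraries, against 16.1% of all genes, 2 (8.70%) were below, against 18.4%, and 4 (17.4%) passed the F-test, against 8.65%.

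Of 19 tested genes known as AP-1 targets in fibroblasts, 10 were higher and 9 lower in CharmeKO, with 0 past the threshold, from *Itga5*, an integrin chain for fibronectin, at -1.06 to *Mmp9*, a gelatinase, at 0.95. In the libraries numbered 2, 2 (10.5%) were above the other 4 and 6 (31.6%) below, against 16.1% and 18.4% of all genes. The 2 above, named after their values were seen, were *Mmp3* and *Mmp13*, both matrix metalloproteinases. *Mmp3* had 12867, 41756 and 13424 normalised reads in WT libraries 1 to 3 and 15244, 63444 and 13281 in CharmeKO libraries 1 to 3 (F-test adjusted p = 0.0361 by limma).

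**Figure D4:**
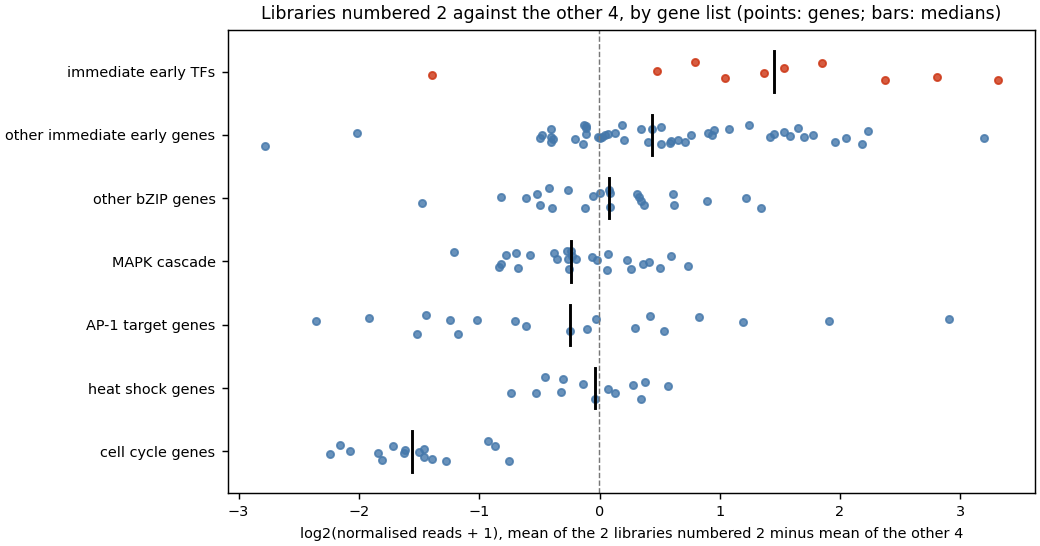
Difference of the mean log2(normalised reads + 1) of the 2 libraries numbered 2 from that of the other 4, with 1 point per gene, a row per gene list, black bars for list medians and a dashed line for the median of all genes. The 10 immediate early transcription factors (red) run from -1.39 to 3.31 with a median of 1.45, while the cell cycle genes all lie below 0 with a median of -1.56.

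Cell cycle genes moved with the replicate number in the opposite direction. All 16 of the list were below the other 4 libraries in both libraries numbered 2, against 18.4% of all genes, and 14 passed the F-test (87.5%, against 8.65%). Their summed level was 616, 254 and 732 CPM in WT libraries 1 to 3 and 613, 252 and 708 CPM in CharmeKO libraries 1 to 3. Between genotypes the list ran from *Bub1* at -0.23 to *Birc5* at 0.17. Smooth muscle and pericyte markers had summed levels of 3343, 762 and 5923 CPM in WT and 3139, 269 and 762 CPM in CharmeKO. All 12 had negative log2 fold changes between genotypes, from *Cspg4* at -3.56 to *Smtn* at -0.52, against 7914 of the 15948 genes tested. By limma 0 of them passed the threshold, and 2 had an unadjusted p under 0.05, against 0.897% of all genes. Haematopoietic and macrophage markers summed to 214, 128 and 48.5 CPM in WT and 460, 346 and 25.8 CPM in CharmeKO. Of these, 4 of 13 passed the F-test (30.8%, against 8.65%). Mesothelial markers summed to 310, 39.5 and 65.4 CPM in WT and 345, 93.1 and 21.9 CPM in CharmeKO, and 1 of 7 passed (14.3%). The part of any of these lists in the values of the immediate early genes was not tested.

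Heat shock genes are known to respond to tissue dissociation. Of 13 tested, 1 was above the other 4 libraries in both numbered 2 (7.69%, against 16.1% of all genes) and 3 were below (23.1%, against 18.4%), with a median difference of -0.037. By limma's F-test over the numbers 3 passed (23.1%, against 8.65% of all genes). The share of variance between the numbers had a median of 80.3%, against 73.8% over all genes. Between genotypes 8 were higher and 5 lower, from *Dnajb4* at -0.53 to *Hspa8* at 0.19, with 0 past the threshold.

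The genes most like the set were sought by Pearson correlation over the 6 libraries with the mean centred log2 value of the members, among 11573 other genes with at least 100 normalised reads on average. The 5 closest were *Svop* (r = 0.997), *Adhfe1* (r = 0.997), *Tamalin* (r = 0.997), *Nat8f3* (r = 0.996) and *Klhl24* (r = 0.996), with Spearman's rho between 0.771 and 0.829. *Svop* had 41.4, 240.2 and 43.9 normalised reads in WT libraries 1 to 3 and 46.1, 320.5 and 57.4 in CharmeKO libraries 1 to 3. These values are a description over 6 points, of which the 2 libraries numbered 2 lie apart from the other 4.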

How the data were processed

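Polyadenylated RNA of 6 libraries was analysed, grouped by the genotype given in the labels. The authors aligned reads with STAR, counted uniquely mapped reads per gene strand-specifically and normalised them with DESeq2. The build is given as GRCm39 with an Ensembl release 87 annotation, which belongs to an earlier build, and the table holds no coordinates, so GRCm38 positions printed here only locate genes. The deposited signal is reads divided by a size factor per library. Whole reads were recovered (100% of 116676 values whole within 1e-06). A count of 0 allows up to 3 reads, 0.0641 to 0.0783 CPM, which covers counting error only.

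The test was limma 3.58.1 (trended prior variance) on log2(value + 1), two-sided, over the 15948 genes reaching 10 reads in 2 or more libraries, adjusted by Benjamini-Hochberg (threshold 0.05). Fold changes on this scale understate those of low genes. edgeR 4.0.16 and DESeq2 1.42.0 on recovered reads, other scalings, filters and pseudocounts, a replicate block and leaving out each library were alternatives, run in R 4.3.3, and scripts were tested on simulated data. Plots used Python 3.11.15 and matplotlib 3.10.9. With 3 against 3 libraries an exact permutation test cannot go below p = 0.1, so none is reported. Deviations of same-numbered libraries from their group means correlated across genes (r = 0.762, 0.514 and 0.217 for numbers 1 to 3), which was taken as pairing from the data, although CharmeKO 3 correlated as much with WT 2 (r = 0.222) as with WT 3. Named genes were the members, the lowest and highest genes of each list and the 5 genes most alike, and others are marked in the text. Some genes that this rule names are not reported here. The members and lists were chosen with earlier results of these data known.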

Additional observations from a re-analysis of the deposited data

How the results depend on the processing

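No immediate early transcription factor passed the threshold between genotypes under any of the 19 alternatives. The count of genes between genotypes went from 0 to 8 with DESeq2 and to 64 with DESeq2 and the replicate block, and stayed at 0 in the other fits. The block changed no member's call. The log2 fold changes changed sign with edgeR and TMM for *Fosl1* (-0.016), *Fosl2* (0.0052), *Egr1* (-0.087) and *Egr2* (-0.077), with edgeR and DESeq2 size factors for *Fosl1* (-0.020), *Fosl2* (0.0021), *Egr1* (-0.085) and *Egr2* (-0.075), with DESeq2 for *Fosl1* (-0.024), *Egr1* (-0.091) and *Egr2* (-0.082), with plain library totals for *Fosl2* (0.028), and, in a fit chosen after seeing the data, without both libraries numbered 2 for *Fosl1* (-0.17) and *Atf3* (-0.047). Leaving out each library in turn, the log2 fold change ranged from -0.43 to 1.45 for *Fos*, -0.86 to 1.35 for *Fosb*, -0.53 to 0.44 for *Fosl1*, -0.18 to 0.15 for *Fosl2*, -0.70 to 0.22 for *Jun*, -0.27 to 0.75 for *Junb*, -0.62 to 0.96 for *Egr1*, -0.25 to 0.47 for *Egr2*, -0.41 to 0.83 for *Ier2* and -0.32 to 0.70 for *Atf3*. The number of genes that differed between replicate numbers, 1379 by limma, was 655 by edgeR with TMM and 613 with DESeq2 size factors, with 4 members in each, 4934 by DESeq2, and 0 to 5906 when 1 library was left out, with 0 to 9 members. The cause of these differences was not tested. Each member had at least 100 reads in every library.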
